A study of Mus musculus with 6 samples.

Results

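Connexins are the proteins of gap junctions, and 6 of their genes are described here in cells of the embryonic aorta region: Gja5, Gja4, Gja1, Gjc1, Gjb2 and Gjb5. They were taken by name from 19937 genes that had a probe set of their own, and each of the 6 had a single probe set. The samples were cells of E11.5 embryos of CD1 mice, from the part of the trunk where aorta, gonad and mesonephros lie together (AGM). Cells were sorted for CD31, an endothelial surface protein that germ cells and early blood cells can also carry, and against the leukocyte antigen CD45 and the red cell antigen Ter119. All 6 samples share this gate. They were divided by surface c-kit, a receptor tyrosine kinase of stem, mast and germ cells, into 3 c-kit-positive and 3 c-kit-negative samples, with 1 array each. The labels give no genetic change and no drug for either population, name the replicates as biological, and do not state how many embryos went into each. The p-values therefore measure the spread between these arrays, which may in part be technical.

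Connexins assemble in groups into half-channels, and the half-channels of adjoining cells dock to form a pore that passes ions and small metabolites. In blood vessels Gja5, Gja4 and Gja1 couple endothelial cells to each other and to smooth muscle. Gja5 and Gja4 are known as arterial connexins, and Gja1 is the most widely expressed connexin and is also needed for the growth of the germ cell pool. Gjc1 is made by the early heart and by vascular muscle, and the beta connexins Gjb2 and Gjb5 are known mainly from epithelia, skin and, for Gjb5, the placenta.

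On the c-kit-positive arrays 3 of the connexins were much lower, Gja5 by 13.8-fold, Gja1 by 4.94-fold and Gja4 by 3.99-fold. Gjb5 was 1.5-fold higher, a small rise that did not pass once any 1 of the 6 arrays was left out. Nor did Gjb5 pass with the replicate number in the model. Gjc1 (difference 0.48) and Gjb2 (difference -0.01) did not pass. Values are log2 values from RMA, so a difference of 1 is a doubling, and each difference is the c-kit-positive mean less the c-kit-negative mean, with the SE of limma, a linear model that shares variance information between genes. A gene was said to rise or fall at a Benjamini-Hochberg adjusted p under 0.05 over all genes. By that rule 3 of the 6 connexins fell, where 4.70% of all genes did, and 1 rose, where 2.71% of all genes did. The 6 connexins and the lists below were chosen with earlier results of these data known, so such shares are description and no test. In sorted bulk samples, fewer cells that make a gene and less of its RNA per cell cannot be told apart.

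The promoter windows of the 4 genes that passed are shown because they place the arterial pair, Gja5 and Gja4, beside a connexin that fell with them and the connexin that rose. Each runs 5′ to 3′ from 250 bases before to 50 bases after the annotated start, taken from RefSeq on GRCm38.p6. RefSeq windows were found for 5 of the 6 genes, and Gjc1 had none. The windows of Gja5 (chr3:97032152-97032451, plus strand), Gja4 (chr4:127313990-127314289, minus strand), Gja1 (chr10:56377050-56377349, plus strand) and Gjb5 (chr4:127358115-127358414, minus strand) read as follows, with matches to the searched motifs in capitals.
Gja5: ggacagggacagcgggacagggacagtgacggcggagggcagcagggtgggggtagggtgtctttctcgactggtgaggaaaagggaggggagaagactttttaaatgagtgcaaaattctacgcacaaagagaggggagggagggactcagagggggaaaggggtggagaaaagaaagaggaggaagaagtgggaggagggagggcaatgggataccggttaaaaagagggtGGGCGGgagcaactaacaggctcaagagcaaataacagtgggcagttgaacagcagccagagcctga
Gja4: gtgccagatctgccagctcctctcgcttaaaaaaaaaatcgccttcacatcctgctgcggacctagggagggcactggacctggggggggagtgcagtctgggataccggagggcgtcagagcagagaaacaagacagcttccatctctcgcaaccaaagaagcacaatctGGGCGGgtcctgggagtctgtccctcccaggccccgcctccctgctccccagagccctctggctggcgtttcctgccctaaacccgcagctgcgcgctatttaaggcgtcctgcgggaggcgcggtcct
Gja1: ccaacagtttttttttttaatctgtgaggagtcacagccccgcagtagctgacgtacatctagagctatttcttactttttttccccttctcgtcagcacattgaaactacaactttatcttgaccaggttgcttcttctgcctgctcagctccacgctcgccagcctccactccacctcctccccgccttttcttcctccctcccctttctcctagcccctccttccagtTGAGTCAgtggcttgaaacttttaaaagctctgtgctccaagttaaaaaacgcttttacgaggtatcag
Gjb5: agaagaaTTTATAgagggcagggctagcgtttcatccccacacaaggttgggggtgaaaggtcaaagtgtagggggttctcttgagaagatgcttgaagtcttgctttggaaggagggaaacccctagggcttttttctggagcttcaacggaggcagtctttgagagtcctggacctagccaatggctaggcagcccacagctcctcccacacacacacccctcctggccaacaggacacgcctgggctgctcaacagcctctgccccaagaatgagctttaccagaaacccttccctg

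On either strand 8 short motifs were searched. The GC box GGGCGG stood 17 bases before the start of Gja5 and 79 bases before that of Gja4, and 35.7% of 32851 RefSeq windows of the same length hold it. The window of Gjb2, which is not printed and whose gene did not pass, also holds the GC box. There it stood 211 bases before the start and, on the opposite strand, 126 bases before it. The AP-1 motif TGANTCA stood 19 bases before the start of Gja1 and is held by 7.81% of windows. A TATA box, TATAAA, was read on the opposite strand 243 bases before the start of Gjb5, and 13.6% of windows hold that motif. No match in these 4 windows was found for the Hey E-box CACGTG (7.15% of windows), the Rbpj core TGGGAA (25.6%), the Sox core ACAATG (12.6%), the T-box core GGTGTGA (3.98%) or the Nkx2 core CAAGTG (13.6%). The 4 printed matches do not overlap, and a match only says that these letters occur. The window of Gja4 is 62.0% G and C with 16 CpG dinucleotides, that of Gja5 55.7% with 7, that of Gjb5 54.3% with 3 and that of Gja1 47.7% with 8, where the median window has 52.7% and 7. The windows of the genes that fell lie on either side of the median in base composition.

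Gja5 (probe set 10494548) encodes Cx40, the connexin of arterial endothelium and of the fast conduction tissue of the heart. Replicates 1, 2 and 3 gave 9.67, 10.06 and 9.49 in the c-kit-negative population, and 6.70, 5.95 and 5.21 in the c-kit-positive one. All c-kit-positive values lay below all c-kit-negative ones, and the nearest pair was 2.79 apart. A separation downward, shared by Gja5, Gja4 and Gja1, was met by 10.6% of all genes. The means were 5.95 ± 0.75 against 9.74 ± 0.29 (SD, n = 3 each), a difference of -3.78 ± 0.34 (SE, limma adjusted p = 0.000408). Among all genes this was the 19th lowest difference. The c-kit-positive arrays also disagreed with each other about Gja5 more than about most genes: their SD was larger than that of 98.8% of genes, while that of the c-kit-negative arrays was larger than that of 76.7%. With each array left out in turn the difference ran from -4.16 to -3.41.

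Gja4 (probe set 10516481) encodes Cx37, which works beside Cx40 in arterial endothelium and also joins oocytes to their follicle cells. The c-kit-negative replicates 1, 2 and 3 stood at 7.72, 7.88 and 7.48 and the c-kit-positive ones at 5.80, 6.0 and 5.30. The populations did not overlap, with 1.48 between the nearest values. The means of 5.70 ± 0.36 and 7.70 ± 0.20 (SD, n = 3 each) differed by -2.0 ± 0.20 (SE, limma adjusted p = 0.000815). In both populations replicate 3 was the lowest and replicate 2 the highest.

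Gja1 (probe set 10363173) encodes Cx43, the connexin of many mesenchymal, epithelial and vascular cells. It was nearly constant in c-kit-negative cells, at 8.96, 9.0 and 9.0, and stood at 6.22, 6.71 and 7.11 in c-kit-positive replicates 1, 2 and 3. The lowest c-kit-negative value was 1.85 above the highest c-kit-positive one. The means were 6.68 ± 0.45 and 8.99 ± 0.02 (SD, n = 3 each), a difference of -2.31 ± 0.22 (SE, limma adjusted p = 0.000489). The SD among c-kit-negative arrays was larger than that of only 1.18% of genes, and that among c-kit-positive arrays was larger than that of 91.5%. Within the c-kit-positive population the array highest for Gja5, replicate 1, was the lowest for Gja1, and replicate 3 was the reverse.

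Gjc1 (probe set 10391762) encodes Cx45, an early connexin of the heart tube and of vascular muscle. Its values were 8.34, 8.87 and 8.85 in the c-kit-negative and 9.40, 9.25 and 8.84 in the c-kit-positive replicates 1, 2 and 3. The populations overlapped, because c-kit-positive replicate 3 lay below 2 of the c-kit-negative arrays. The means of 9.17 ± 0.29 and 8.69 ± 0.30 (SD, n = 3 each) differed by 0.48 ± 0.21 (SE), with a 95% interval from 0.01 to 0.95 (limma adjusted p = 0.228). That interval, not adjusted for the number of genes, holds no fall of the size seen for Gja5, Gja4 or Gja1.

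Gjb5 (probe set 10516490) encodes Cx31.1, a connexin of stratified epithelia and trophoblast. It was at 5.23, 5.10 and 5.30 in the c-kit-negative and at 5.77, 5.79 and 5.82 in the c-kit-positive replicates 1, 2 and 3. The populations did not overlap, the nearest values being 0.46 apart, and such a separation upward was met by 16.2% of all genes. The means were 5.79 ± 0.02 and 5.21 ± 0.11 (SD, n = 3 each), a difference of 0.58 ± 0.13 (SE, limma adjusted p = 0.0306). The c-kit-positive arrays were close together, with an SD larger than that of only 1.49% of genes. With 1 array left out the adjusted p ran from 0.0607 to 0.10 for all 6 choices, without c-kit-negative replicate 1, 2 or 3 or c-kit-positive replicate 1, 2 or 3, while the difference stayed between 0.52 and 0.63. The call was also lost with the replicate number as a block in the model (limma adjusted p = 0.0683).

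Gjb2 (probe set 10420362) encodes Cx26, best known from the inner ear and skin. The c-kit-negative replicates 1, 2 and 3 were at 4.86, 4.77 and 4.18 and the c-kit-positive ones at 4.97, 4.69 and 4.13. In each population replicate 1 was the highest and replicate 3 the lowest, and the populations overlapped over nearly their whole range. The means of 4.59 ± 0.43 and 4.60 ± 0.37 (SD, n = 3 each) differed by -0.01 ± 0.26 (SE, limma adjusted p = 0.994), with a 95% interval from -0.59 to 0.58. The sign of this difference changed under some alternatives. No detection calls were used here, so whether Gjb2, Gjb5, or Gja5 and Gja4 in c-kit-positive cells stood above array background is not known, and background can understate the folds given for the last 2.

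**Figure D1:**
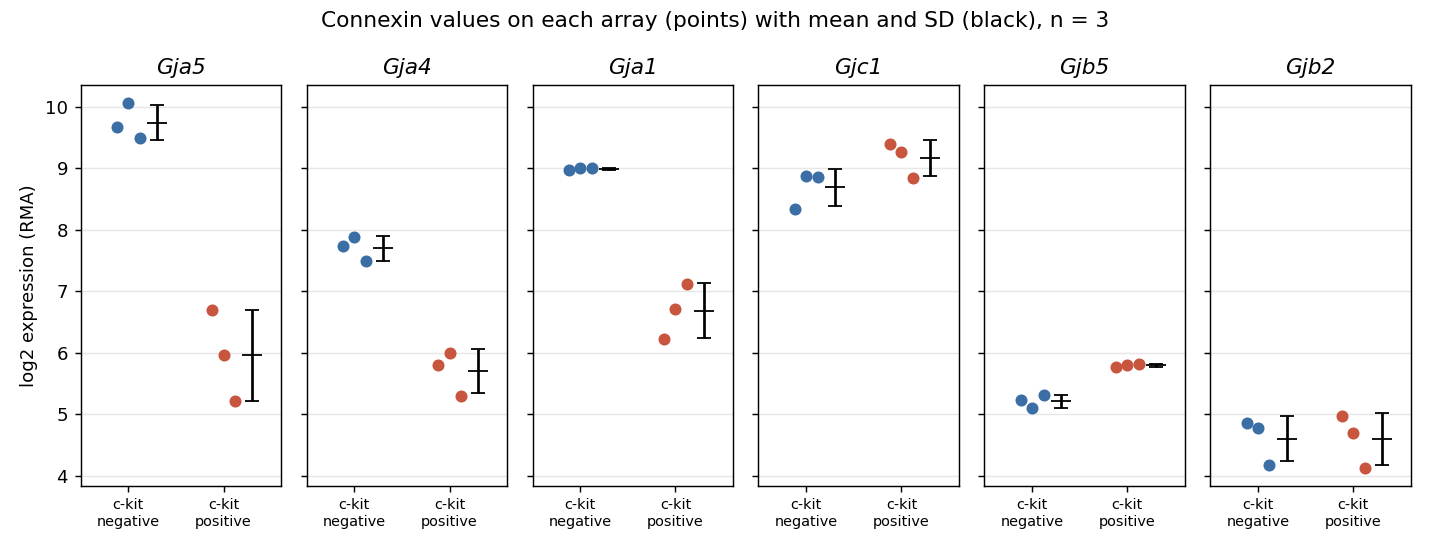
The log2 expression (RMA, vertical axis) of each connexin is plotted for the 3 c-kit-negative (blue) and 3 c-kit-positive (red) arrays, in the order of replicates 1 to 3 from left to right, with the mean and SD in black. Gja5, Gja4 and Gja1 sit lower on every c-kit-positive array, Gjb5 sits slightly higher, and the values of Gjc1 and Gjb2 overlap.

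**Figure D2:**
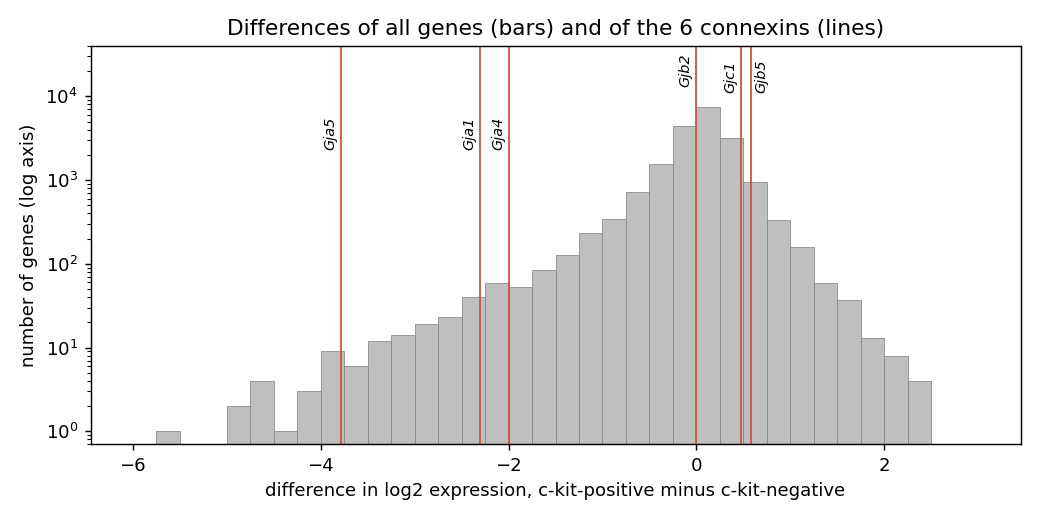
The differences of all 19937 genes are counted in bins of 0.25 on the log2 scale (grey bars, log axis), and red lines mark the 6 connexins. Gja5, at -3.78, lies far in the lower tail, Gja1 (-2.31) and Gja4 (-2.0) lie in it too, and Gjb2 (-0.01), Gjc1 (0.48) and Gjb5 (0.58) lie in the body of the distribution, whose median is 0.07.

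Whether the connexins changed by unequal amounts was asked within arrays, by subtracting one gene's log2 value from another's on the same array for all 15 pairs. A pair's own offset depends on its probes, so only its change between populations was compared. In 11 pairs the 3 c-kit-positive values lay apart from the 3 c-kit-negative ones, with the smallest two-sided p that an exact permutation test of 3 against 3 can give, 0.1 (0.136 adjusted over the 15 pairs). No pair could pass a threshold of 0.05 in this design. The share over pairs of all genes was not computed and the 15 pairs reuse 6 genes, so the count of 11 is description. Gja4 minus Gja5 rose from -1.94, -2.18 and -2.01 in the c-kit-negative to -0.90, 0.05 and 0.09 in the c-kit-positive replicates. Gja5 was thus lower by a further 1.79 than Gja4 was. The c-kit-positive means were close, 5.95 for Gja5 and 5.70 for Gja4, while the c-kit-negative means were 9.74 and 7.70. Whether background limited the fall of Gja4 more was not tested. Gja1 minus Gja5 changed by 1.48, from -0.70, -1.06 and -0.49 to -0.48, 0.76 and 1.90, where c-kit-positive replicate 1 lay just above the nearest c-kit-negative value. Gja1 minus Gja4 overlapped between populations, at 1.24, 1.12 and 1.52 against 0.42, 0.71 and 1.81 (change -0.31, exact permutation p = 0.5). Every pairing of Gja5, Gja4 or Gja1 with Gjc1, Gjb2 or Gjb5 separated the populations. Their changes ran from -1.99 for Gja4 minus Gjb2 to -4.37 for Gja5 minus Gjb5. These separations largely restate the falls of Gja5, Gja4 and Gja1 given above, because Gjc1, Gjb2 and Gjb5 changed little. The pairs among Gjc1, Gjb2 and Gjb5 all overlapped.

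No measured gene of the rest of the gap junction family passed the test. Of 10 other connexins with a probe set of their own, 0 fell or rose in limma, with 0 at an unadjusted p under 0.05. Over all genes 4.70% fell and 2.71% rose. At such shares lists of 10 or 3 genes can readily hold 0, so these counts are no result about the family. The mean level of the 10 was 4.63 to 4.71 on c-kit-negative and 4.68 to 4.82 on c-kit-positive arrays. Array medians were 5.42 to 5.52, and whether these genes stood above background is not known. Their differences ran from -0.19 (Gja6) to 0.29 (Gjb6), with a median of 0.10 beside 0.07 over all genes. Gjb6, which pairs with Gjb2 in the inner ear and had the smallest p, averaged 3.77 ± 0.10 on c-kit-negative and 4.06 ± 0.15 on c-kit-positive arrays (SD, limma adjusted p = 0.29). Pannexins, a separate family of membrane channels, also had 0 of 3 past the threshold and 0 at an unadjusted p under 0.05 (limma). For Panx3, first among them by p, the averages were 4.24 ± 0.19 and 4.50 ± 0.17 in the same order (SD, limma adjusted p = 0.394).

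**Figure D3:**
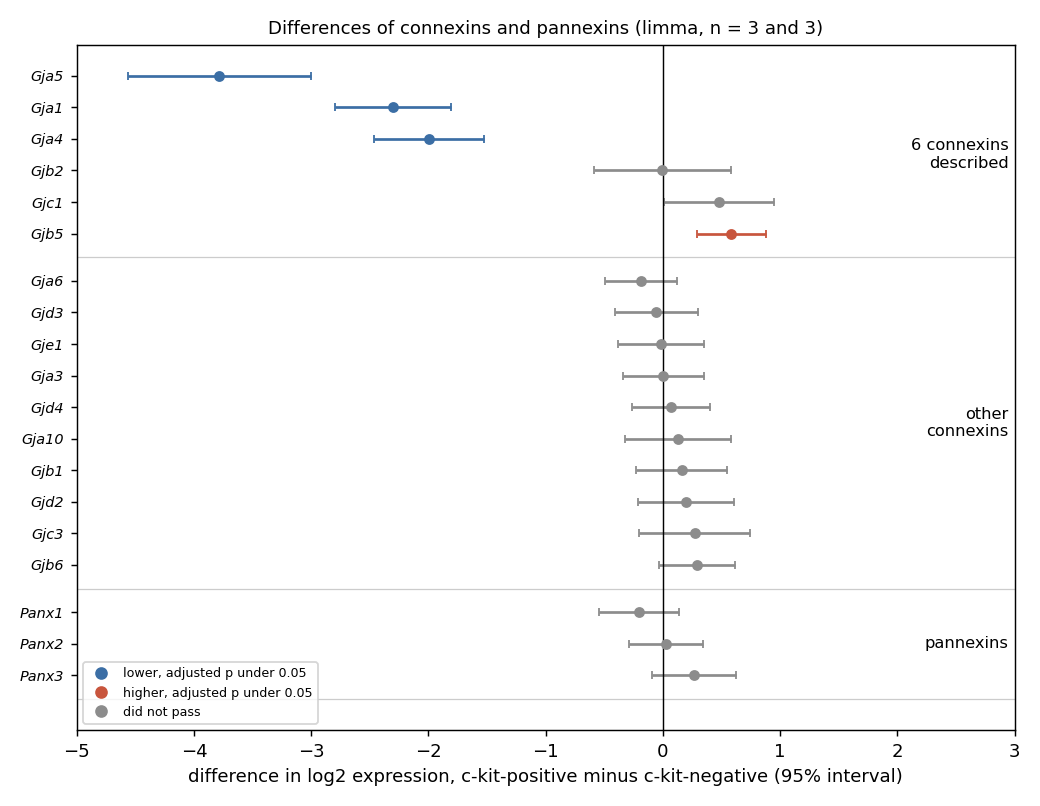
Differences in log2 expression, c-kit-positive minus c-kit-negative, are drawn with their 95% intervals from limma for the 6 connexins, the 10 other connexins and the 3 pannexins. The intervals of Gja5, Gja1 and Gja4 lie entirely below 0, and those of all 10 other connexins and all 3 pannexins include 0.

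Proteins that hold, carry or remove connexins were followed in a list of 20, of which 19 were measured. They include Tjp1 (ZO-1), the scaffold that binds the tail of Cx43, the ubiquitin ligases that mark connexins for removal, and the adhesion proteins that gap junctions need. Of the 19, 8 fell (background 4.70%) and 0 rose, with 0 higher at an unadjusted p under 0.05 (limma), and the median difference was -0.18 beside 0.07 over all genes. Cav1, the coat protein of caveolae and a partner of Cx43, was at 8.27 ± 0.43 in c-kit-negative and 4.61 ± 0.29 in c-kit-positive cells (SD of 3 arrays), a 12.6-fold fall (limma adjusted p = 7.86e-05). Cdh2, or N-cadherin, whose adhesion brings Cx43 junctions together, was 6.01-fold lower. Dab2, a clathrin adaptor used in the uptake of Cx43 junctions, was 4.88-fold lower, and Dbn1 (drebrin), which ties Cx43 to actin, was 3.08-fold lower. The other falls were smaller, those of Tjp1 (-1.50), Ctnnb1 (-0.79), Nedd4 (-0.68) and Smurf2 (-0.67), named after their values were seen. Of the remaining 11, whose differences ran from -0.37 (Eps15) to 0.37 (Ubqln4), none passed in limma.

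Regulators known from vascular and cardiac work on Gja5, Gja4 and Gja1 were measured for all 18 genes listed. Of these 8 fell (background 4.70%) and 0 rose, with 1 higher at an unadjusted p under 0.05 (limma), Hopx (0.72), named after its value was seen, and the median was -0.56 beside 0.07 over all genes. Foxc2, a forkhead factor of arteries, lymphatic vessels and mesenchyme, averaged 5.03 ± 0.41 in c-kit-positive cells, 7.01-fold below the 7.84 ± 0.20 of c-kit-negative cells (SD, limma adjusted p = 0.000193). Hey2, the Notch effector of arterial fate, was 3.61-fold lower, the BMP co-receptor Eng 3.45-fold and the Notch ligand Dll4 2.29-fold lower. Rbpj (-0.10), through which Notch receptors act on DNA, Hey1 (-0.09) and the flow-responsive factor Klf2 (0.02), also named after their values were seen, did not pass. The other falls were those of Sox17 (-1.23), Acvrl1 (-1.22), Tbx3 (-1.17) and Foxc1 (-1.11), named after their values were seen. The list was not divided into genes that raise and genes that lower connexins, so its falls do not point in 1 direction for them. Of the regulators, 4 (Dll4, Hey2, Sox17 and Acvrl1) also stand in the arterial marker list, so the lists are not independent of each other.

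**Figure D4:**
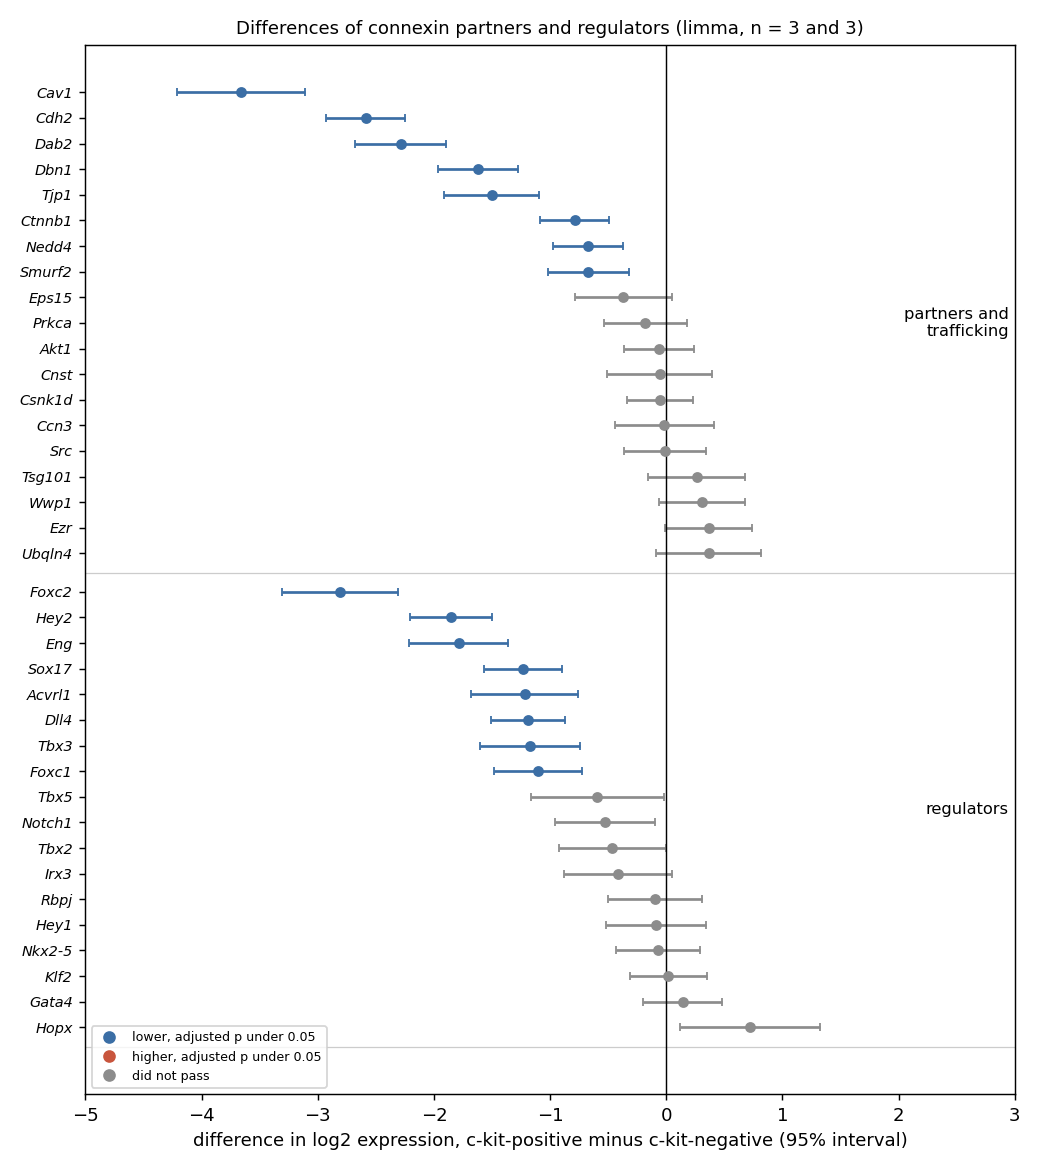
Differences in log2 expression, c-kit-positive minus c-kit-negative, are drawn with 95% intervals from limma for 19 connexin partners and 18 regulators, in blue where the gene fell and in grey where it did not pass. The falls reach -3.66 for Cav1 among the partners and -2.81 for Foxc2 among the regulators, and no gene of these lists rose.

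Markers of cell types that the gate selects (endothelium, germ cells, early blood cells and platelets) and of types it should remove (mesenchyme, epithelium, macrophages and red cells) moved on the same arrays, and their part in the connexin differences was not tested. All 12 endothelial markers fell (median -2.50), and their mean log2 level was 8.78 to 8.84 on c-kit-negative and 5.82 to 6.14 on c-kit-positive arrays. Kdr, the main VEGF receptor, was 29.3-fold lower and the angiopoietin receptor Tek 10.9-fold lower. Of 10 arterial markers 9 fell (median -1.23, mean level 7.10 to 7.26 against 5.50 to 5.64), with Nrp1 16.3-fold and Efnb2 5.49-fold lower. The fall of Gja5 exceeded those of all arterial markers listed but Nrp1 in size, and that difference between genes was not tested. Gja5 averaged 9.74 on c-kit-negative arrays, above the mean level of the arterial list. Whether the starting level bears on the size of a fall was not tested. Of 8 venous and lymphatic markers 7 fell (median -2.18, mean level 7.53 to 7.63 against 5.06 to 5.45), and the 2 with the smallest p were Aplnr, 28.2-fold, and Stab1, 4.06-fold lower. Mesenchymal and smooth muscle markers, cells in which Gja1 is also made, fell in 6 of 10 (median -1.54, mean level 6.37 to 6.60 against 5.07 to 5.18), among them Prrx1, 6.0-fold, and Pdgfra, 4.43-fold lower.

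Germ cell markers went the other way, with 12 of 14 higher (median 1.57, mean level 6.23 to 6.35 on c-kit-negative and 7.61 to 7.76 on c-kit-positive arrays). Sycp3, of the meiotic chromosome axis, was 5.59-fold and the RNA-binding protein Dazl 3.60-fold higher. Of the 6 connexins, Gjb5 was the 1 that rose on these arrays, while Gja1, which germ cells are known to need, fell. Of 11 haematopoietic markers 4 rose (median 0.45, mean level 6.70 to 6.85 against 7.26 to 7.33), and the 2 with the smallest p were Myb, 3.40-fold, and Rac2, 1.70-fold higher. Of 10 epithelial markers 2 rose, Cdh1 (2.22-fold) and Epcam (2.15-fold), which germ cells also carry, and mean levels ran from 5.67 to 5.96 against 6.06 to 6.35. Of 5 platelet markers 2 fell (median -0.26), Ppbp by 8.54-fold and Pf4 by 10.4-fold (mean level of the list 7.04 to 8.30 against 5.92 to 6.55). Of 6 erythroid markers 3 fell (median -1.24), among them the embryonic globins Hba-x, 14.2-fold, and Hbb-y, 15.7-fold (7.24 to 8.13 against 6.01 to 6.27). Of 9 macrophage markers 2 fell (median -0.515), Csf1r by 3.91-fold and Tyrobp by 1.61-fold (6.07 to 7.14 against 5.83 to 5.99). In the erythroid and the macrophage list none rose, but 1 gene of each was higher at an unadjusted p under 0.05 (limma). Among the genes of the gate, Kit was at 9.55 ± 0.03 against 8.22 ± 0.04 (SD, n = 3 each), which checks the labels, Pecam1 at 9.13 ± 0.16 against 10.02 ± 0.02 and Ptprc at 8.52 ± 0.13 against 8.75 ± 0.60.

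**Figure D5:**
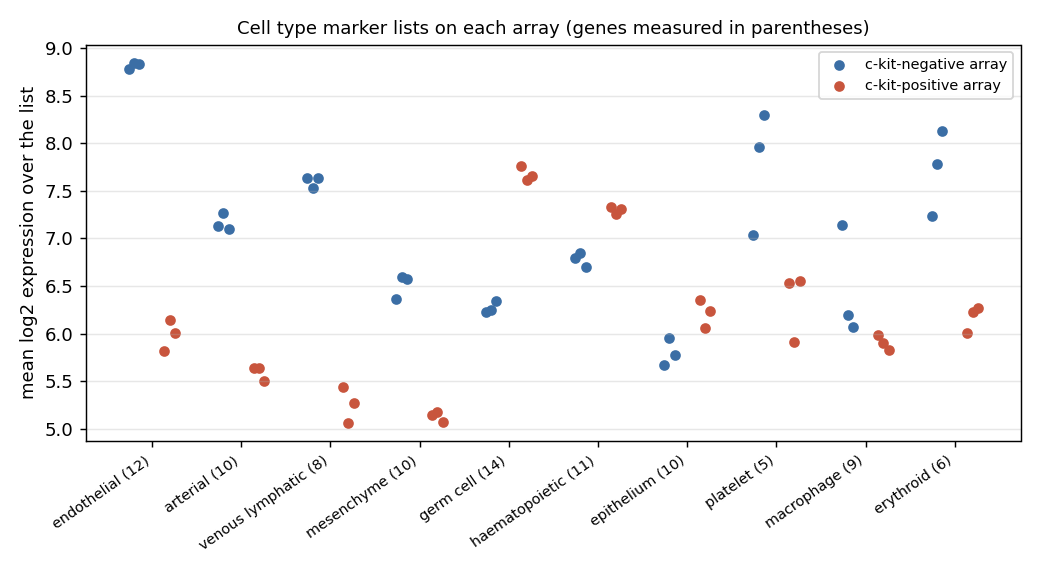
The mean log2 expression of each marker list (vertical axis) is plotted for each of the 3 c-kit-negative (blue) and 3 c-kit-positive (red) arrays, with the number of genes measured beside the list's name. Endothelial, arterial, venous and mesenchymal lists are lower on every c-kit-positive array and the germ cell and haematopoietic lists higher, and the c-kit-negative arrays differ among themselves in platelet, macrophage and erythroid markers.

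The genes most like each connexin were found by the root mean square distance between profiles over the 6 arrays, each gene centred on its own mean. This is a description, and it rests mostly on the difference between populations. Gja5 had the most distant neighbours, the mechanosensitive channel gene Piezo2 (distance 0.34, difference -3.68), the oxidase subunit gene Cybb (0.38, -3.42) and the lysophosphatidic acid receptor gene Lpar4 (0.39, -3.26). Nearest to Gja4 were Mcam, an endothelial and mural adhesion molecule (0.13, -1.96), Sp140 (0.16, -1.94) and the caveolin gene Cav2 (0.16, -1.77). Nearest to Gja1 were Klf12 (0.12, -2.46), the endothelial receptor gene Tie1 (0.15, -2.31) and the tropomyosin gene Tpm4 (0.15, -2.04). All 3, like Gja1, were lowest on c-kit-positive replicate 1 and highest of that population on replicate 3. Choosing genes by distance over these same arrays favours such a shared order. Gjb5 lay closest to Rcc1 (0.03, 0.54), Plch1 (0.03, 0.63) and Prdm1, a founding factor of the germ line (0.05, 0.60). Gjc1 was nearest to Xpc (0.07, 0.48), Dennd1c (0.08, 0.41) and Tesc (0.08, 0.36), and Gjb2 to Zfp458 (0.08, -0.07), Ttc39c (0.09, -0.07) and Abtb1 (0.10, -0.01).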

How the data were processed

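Total RNA, 5 ng per sample, was amplified, turned into biotin-labelled cDNA and hybridised to 1 array per sample, per the labels' protocols. Amplification from so little RNA can distort ratios. The deposited values are log2 values that the authors made with RMA, per the submitters' processing notes, and their scale follows from their range (1.22 to 13.71, array medians 5.42 to 5.52). No depth applies to arrays, whose number limits the precision. Of 34760 probe sets, 21640 carried 1 gene symbol in the platform annotation, 1321 carried several and 11799 were not listed. Of those with 1 symbol, 21553 matched RefSeq by Entrez identifier, and 954 genes with more than 1 probe set were represented by the one with the highest mean. No filter on level was set.

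The comparison was a linear model in limma 3.58.1, run under R 4.3.3 (lmFit, eBayes, two-sided, no block, Benjamini-Hochberg over all 19937 genes). On simulated arrays of these 19937 genes, it recovered 0% of genes changed by 0.5, 52% by 1 and 96% by 2 on the log2 scale. Only 50 genes were changed by each size and 131 were called, where the data gave 937 lower and 540 higher. With fewer changed genes the Benjamini-Hochberg cut is stricter, so these shares may understate recovery in the data. The members and lists were chosen with earlier results of these data known. Named genes were the 6 connexins, up to 4 genes of smallest p in each direction from each connexin-related list (or the gene of smallest p where none passed), 2 from each marker list, Kit, Pecam1 and Ptprc, and the 3 genes most like each connexin, without small RNA genes and without models that have only a number or clone for a name. The model was rerun after quantile normalization or centring on medians, without the 30 or 50 percent of genes with the lowest mean, on the mean of probe sets, with array weights, with a trended robust prior, with a block for the replicate number, and without each array. Other background corrections and slide effects need scanner files, which were not used here. Figures were drawn with matplotlib 3.10.9.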

Additional observations from a re-analysis of the deposited data

How the results depend on the processing

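Gja5, Gja4 and Gja1 fell under all 14 alternatives, with differences from -4.16 to -3.41, -2.15 to -1.80 and -2.52 to -2.07 and adjusted p no higher than 0.00538. The mean of probe sets, the filters on dim genes, the trended robust prior and the block cannot change a connexin's difference. Under those only its adjusted p could move. Gjc1 passed under none of 14 (0.31 to 0.64, adjusted p 0.142 to 0.497). Gjb5 kept its sign under all 13 that could be run, but its call was lost with the replicate number as a block (0.58, adjusted p = 0.0683) and with each array left out (0.52 to 0.63). The difference of Gjb2 turned positive with median centring (0.017) and array weights (2.66e-05) and ran from -0.22 to 0.23 with 1 array left out, and adjusted p was never under 0.668. Gjb2 was left out of both filters on dim genes and Gjb5 out of the stricter one. The labels do not state whether the replicate number pairs the samples, and the values do not settle it. Same-numbered arrays had correlations of deviations of 0.001, 0.024 and 0.059 over genes, and 4 of 6 arrays correlated best with their own number. The block gave 879 genes lower and 476 higher over all genes, and 7 of 19 partners and 8 of 18 regulators lower. Of all genes 540 were higher, and 276 to 369 with 1 array left out, a change of over 1.5 times without c-kit-negative replicate 1 (276), 2 (292) or 3 (323) or c-kit-positive replicate 1 (310) or 3 (287), where fewer samples were tested. Leaving out 1 array gave 6 to 8 partners and 8 regulators lower. After quantile normalization the unequal changes of the 15 pairs moved by less than 1 SD, averaged over both populations. The other reruns of the pairs could not have moved them that far. Leaving out 1 of 3 arrays shifts a mean by less than that, and each connexin has a single probe set. Even so, with 1 array left out Gja1 minus Gja5 (1.48) ran from 0.89, without c-kit-positive replicate 3, to 2.08, without c-kit-positive replicate 1, Gja1 minus Gja4 (-0.31) from -0.73 to -0.03 and Gjc1 minus Gjb5 (-0.10) from -0.29 to 0.07. Median centring and quantile normalization moved the median difference of all genes by 0.02 and -0.03. No level of detection was used, so the limit that dim signal sets on Gjb2, Gjb5 and the c-kit-positive levels of Gja5 and Gja4 was not measured.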

Other observations

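Genes next to the connexins were looked up in the gene order of RefSeq. On chromosome 14 Gjb2 stands between Gja3 and Gjb6, and none of the 3 passed in limma (differences of -0.01, 0.0032 and 0.29). Gja4 (-2.0) and Gjb5 (0.58), on chromosome 4, are among each other's nearest 3 genes and went in opposite directions. Leaving out the 6 connexins described here, of 25 measured genes that were among the nearest 3 protein-coding genes on either side of a connexin described here, 1 fell and 1 rose (limma), where 4.70% and 2.71% of all genes did. Both are named after their values were seen: Serinc1, near Gja1 (-0.73 ± 0.17, SE, limma adjusted p = 0.0383), and Acp6, next to Gja5 (0.82 ± 0.20, SE, limma adjusted p = 0.0413).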
